A study of Mus musculus with 288 samples.

Results

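The 10 genes described here encode chaperones and folding enzymes of the endoplasmic reticulum (ER): Hspa5, Hsp90b1, Hyou1, Dnajb9, Sdf2l1, Pdia4, Pdia6, Calr, Manf and Creld2. They were chosen by name and not by a cut on measured values, though earlier results of these data were known. All 10 were found among the 35904 genes of the tables. RNA was sequenced from 6 organs (heart, lung, liver, kidney, muscle and cerebellum) of wild-type male C57BL/6J mice, 8 weeks old, that had spent 7 days either in room air (normoxia) or in intermittent hypoxia (IH), in which oxygen cycled between room air and low levels during the light phase. All mice then went into constant darkness in normoxia, and organs were taken on the second day at 8 circadian times 3 hours apart, with 3 libraries per tissue, treatment and time, or 24 per tissue and treatment. Several organs came from each mouse, but which libraries share an animal is not recorded in the sources used here. The low oxygen had therefore ended before any organ was taken, so the values describe the days after exposure.

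Proteins that enter the secretory pathway fold inside the ER, where HSPA5 (also called BiP), an Hsp70 chaperone, holds unfolded chains with the help of J-domain partners and exchange factors, while disulfide isomerases join cysteines and calreticulin retains glycoproteins. When unfolded chains accumulate, HSPA5 leaves the sensors IRE1, PERK and ATF6, and the transcription factors XBP1 and ATF6 then raise the genes of the chaperones themselves, a program called the unfolded protein response. In the mouse liver these genes are also known for rhythms tied to feeding and the clock, with periods of 24 or 12 hours.

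The 10 genes are all protein coding and lie on different chromosomes or far apart (GENCODE release M21, GRCm38): Hspa5 (ENSMUSG00000026864.13) at chr2:34771970-34777547, Hsp90b1 at chr10:86690209-86705509, Hyou1 at chr9:44379490-44392369, Dnajb9 at chr12:44205559-44210326, Sdf2l1 at chr16:17130138-17132383, Pdia4 at chr6:47796141-47813430, Pdia6 at chr12:17266545-17284770, Calr at chr8:84841850-84846934, Manf at chr9:106838312-106891979 and Creld2 at chr15:88819646-88826683. Because the genes move together over these libraries, their promoters were searched on both strands for 3 motifs of the unfolded protein response in RefSeq windows of GRCm38.p6 (250 bases before to 50 after the transcription start). The windows of 8 of the 10 genes were matched by symbol, and Hyou1 and Manf were not. The ER stress response element (CCAAT and CCACG with 9 bases of any kind between them), the site of ATF6 with NF-Y, was found in 5 of the 8: Hspa5, Hsp90b1, Pdia6, Calr and Creld2. It was found in 37 of the 27025 genes of the whole promoter table, or 0.137%. The motifs searched are those of the response that raises chaperone genes, so these shares are a description and not an independent test. The shorter element ERSE-II (ATTGG, 1 base of any kind and CCACG, in 0.0444% of all genes) and TGACGTGG (the core of the unfolded protein response element, in 0.714%) were found in 0 of the 8 windows. These are matches of letters and not measured binding, and no match says only that the letters are not in this window.

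The upstream stretches that hold the element are shown because the element was found in 5 of the 8 windows searched. Each is written 5′ to 3′ in the direction of the gene, with the element in capitals. In Hspa5 and Pdia6, and at the distal site of Hsp90b1, the element reads in the direction of the gene, from 65, 98 and 212 bases before the RefSeq start, while in Calr, Creld2 and the proximal site of Hsp90b1 it lies on the opposite strand, so that CGTGG comes first. The Hspa5 stretch is cut short since GENCODE places the start of that gene upstream of it.
Hspa5, chr2:34772020-34772048, plus strand: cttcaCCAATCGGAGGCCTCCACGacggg
Hsp90b1, chr10:86705518-86705671, minus strand: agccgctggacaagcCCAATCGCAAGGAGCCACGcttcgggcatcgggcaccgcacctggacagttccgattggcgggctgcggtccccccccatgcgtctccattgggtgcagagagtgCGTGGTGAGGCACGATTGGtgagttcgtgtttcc
Pdia6, chr12:17266476-17266524, plus strand: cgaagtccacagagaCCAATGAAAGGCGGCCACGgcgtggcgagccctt
Calr, chr8:84847060-84847108, minus strand: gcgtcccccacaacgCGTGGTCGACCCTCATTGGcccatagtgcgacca
Creld2, chr15:88819505-88819553, plus strand: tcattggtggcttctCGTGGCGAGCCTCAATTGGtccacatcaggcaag

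The values are TPM, the share of a library's transcripts that come from each gene, corrected for transcript length, so that levels of different genes can be compared. Library sums lay between 989211 and 999188 TPM, and the depth behind each value is unknown since the tables hold no counts. The number of genes above 0 TPM differed between treatments in the lung (22694 ± 737 in normoxia and 25455 ± 1529 after IH, SD, n = 24 each) and in the heart (25124 ± 1719 and 21447 ± 688). Each tissue held its own defining markers. In the cerebellum, markers of other tissues were also present under both treatments. Summed liver markers had a mean of 2967 TPM in normoxia and 2343 after IH, muscle markers 3756 and 3885, and heart markers 903 and 783. Cerebellum markers themselves had means of 3011 and 3290 TPM. The part of these in the cerebellum results was not tested. Beyond this, some libraries stood apart, 2 of them most clearly. The library labelled liver, IH, 13:30, replicate 2 held 1103 TPM of 6 summed liver markers, where no normoxic liver library held less than 47115, and 5246 TPM of heart markers. The library labelled cerebellum, IH, 1:30, replicate 3 held 303 TPM of cerebellum markers, where the lowest normoxic library held 1253, and 6031 TPM of heart markers. The chaperones were low in both: the liver library held 84.0 TPM of Hspa5 and 8.05 TPM of Creld2, and the cerebellum library 103 and 6.92 TPM. Other libraries stood apart less. Lung markers in the normoxic heart had a median of 1.03 TPM but a mean of 200 ± 524 (SD), with 2002 in the highest library. A lung library after IH held 34681 TPM of lung markers, where no normoxic one held less than 136152. It was not alone in being low, since lung markers stood at 127191 ± 56562 TPM after IH and 174077 ± 23192 in normoxia. Results are given with and without the library of lowest correlation in each tissue where they differ.

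In normoxia, Calr, the calcium-binding lectin chaperone, had the highest level in TPM of the 10 genes in the liver (421 ± 49.6, SD, n = 24), followed by Hspa5 (379 ± 170). Hsp90b1, the ER member of the Hsp90 family (GRP94), followed at 258 ± 43.1 TPM, and Manf, a small secreted ER protein, at 202 ± 71.0. Pdia6 and Pdia4, disulfide isomerases, stood at 131 ± 16.8 and 85.8 ± 20.6. Sdf2l1, a cofactor of HSPA5, stood at 55.1 ± 18.1 TPM, Creld2, an ER protein of the isomerase kind, at 45.5 ± 28.0, Hyou1, the large Hsp70 relative that exchanges nucleotide on HSPA5, at 42.3 ± 20.3, and Dnajb9, a J-domain partner (ERdj4), at 30.8 ± 14.2. The liver SDs of Hspa5, Hyou1, Dnajb9 and Creld2 are large beside their means, and most of that spread lies between circadian times, as the time courses show.

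Across tissues, 6 of the 10 genes had their highest mean TPM in the liver, 3 in the lung (Hsp90b1, 299 TPM; Pdia6, 139; Creld2, 46.5) and 1 in the cerebellum (Dnajb9, 36.5). The heart and the muscle held the lowest mean for 5 genes each. The widest range was that of Pdia4, from 85.8 TPM in the liver to 12.5 in the heart, a ratio of 6.86, and the narrowest that of Dnajb9, from 36.5 in the cerebellum to 16.6 in the heart, a ratio of 2.21. Hspa5 stood at 379 ± 170 TPM in the liver, 304 ± 119 in kidney, 274 ± 63.6 in lung, 172 ± 37.4 in the cerebellum, 123 ± 39.7 in the heart and 107 ± 27.6 in the muscle. In limma fits to log2 of the deposited TPM, 16 of the 50 pairs of neighbours in these orders did not differ at an adjusted p of 0.05, among them kidney and lung, and heart and muscle, for Hspa5, and liver and lung for Hyou1, Manf, Pdia6 and Creld2.

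The order depends on the scale. When libraries were scaled by the median of ratios over all 6 tissues, the liver came first for all 10 genes and the kidney second, 23 of 50 neighbours did not differ, and the heart came last for none. On that scale 121 of 150 tests of a gene between 2 tissues passed, or 80.7%, beside 85.4% over all genes tested, so that differing between tissues is no property of the chaperones.

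**Figure D1:**
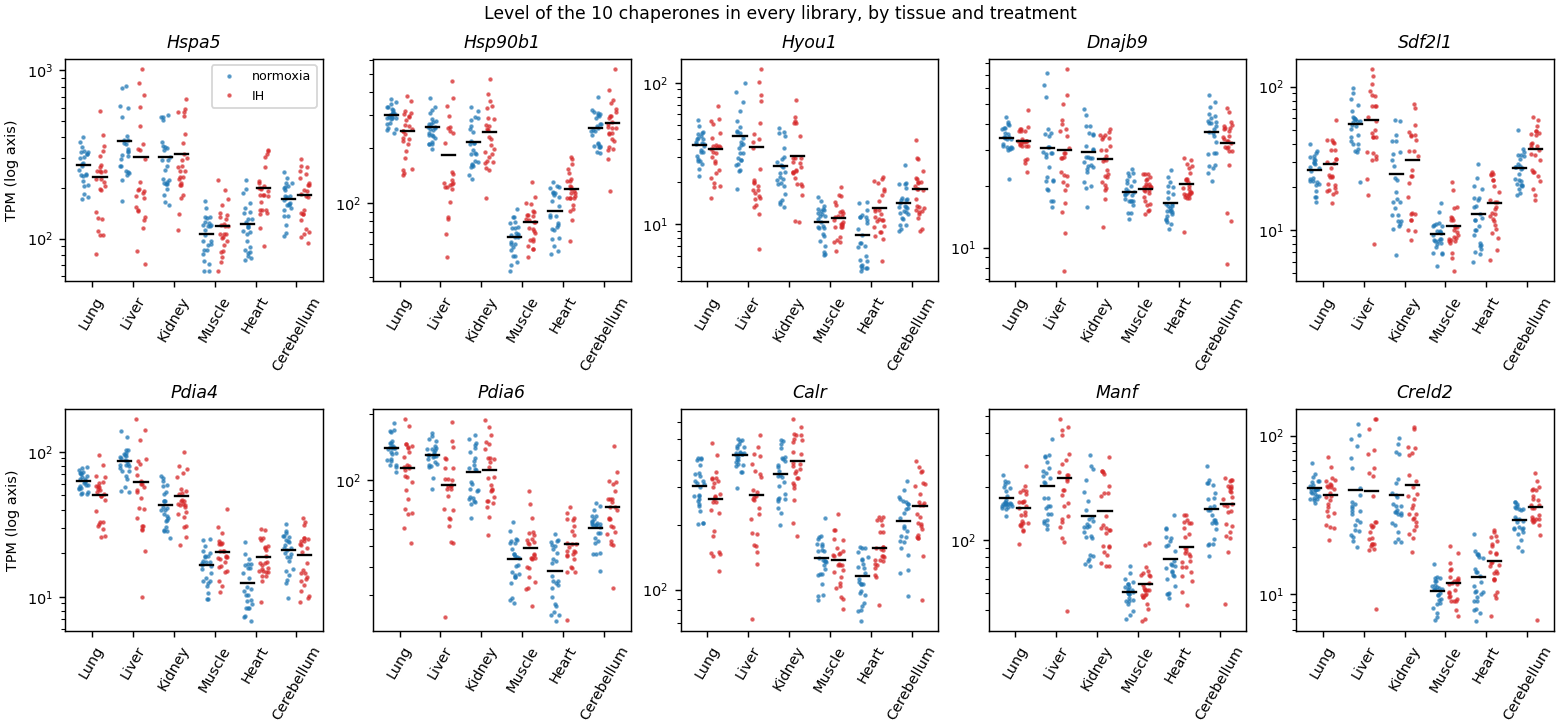
TPM (log axis) of each of the 10 genes in every library by tissue, normoxia in blue and IH in red, with a black bar at the mean of 24 libraries. For all 10 genes the normoxic bars of the liver, lung and kidney lie above those of the heart and the muscle, and Hspa5 in the liver after IH runs from 70.2 to 1017 TPM.

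The first comparison asked whether mean 24-hour expression differed after IH in each tissue, with a limma fit on log2 of scaled TPM over 24 libraries per treatment. The 10 genes moved in opposite directions in different tissues: 9 of 10 fell in the lung, 4 fell in the liver, 7 rose in the heart and 3 rose in the cerebellum, while 0 passed in kidney and muscle (at an unadjusted p of 0.05, 1 in the kidney and 2 in the muscle). Most changes were under 1.5-fold, and for none of the 10 genes did the TPM ranges of the 2 treatments separate in any tissue. The share of all genes with separate ranges is not given here. Nor is the share of all genes that were lower, or higher, at every circadian time. Counts of these kinds thus describe the chaperones and do not set them apart from other genes. In bulk tissue, fewer cells of a type and less RNA per cell cannot be told apart.

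In the lung, where 41.5% of the 15426 genes tested were lower at that adjusted p, 9 of the 10 chaperones were lower and the exception was Sdf2l1. With a change of at least 1.5-fold as well, 4 were lower (Hspa5, Hsp90b1, Pdia4 and Pdia6), beside 4.39% of all genes. This count was 0 without replicate 1, 2 without replicate 2 and 7 without replicate 3, and in replicate number 3 alone it was 0, with log2 changes of 0.06 for Hspa5 and 0.19 for Hyou1. Pdia4 ranged from 50.8 to 78.4 TPM in normoxia with a median of 62.8, and from 25.7 to 95.4 after IH with a median of 52.0. The IH libraries thus spread both below and above the normoxic ones. Its log2 change was -0.69 ± 0.11 (SE; adjusted p = 4.07e-07, limma). Hsp90b1 ranged from 241 to 366 TPM in normoxia (median 296) and from 143 to 383 after IH (median 246), with a change of -0.63 ± 0.09 (adjusted p = 4.95e-08, limma).

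Pdia4, Hsp90b1 and Pdia6 had a lower mean TPM after IH at 8 of 8 times in the lung. Hspa5 was lower at 5 of 8 times: its mean fell from 253 to 138 TPM at 7:30 but stood at 271 in normoxia and 319 after IH at 1:30. Its log2 change over the day was -0.65 ± 0.15 (adjusted p = 2.07e-04, limma). Sdf2l1 changed by -0.20 ± 0.12 (95% interval -0.43 to 0.02), which did not pass.

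The size and, in some models, the direction of the lung result depend on how libraries are set level. Over all genes the median log2 change was -0.08 after scaling and 0.21 in TPM as deposited, and the median of the 10 chaperones was -0.54 and -0.23, so that it differed from the median of all genes by -0.46 and -0.44, respectively. In TPM as deposited, 5 of the 10 passed as lower (Hspa5, Hsp90b1, Pdia4, Pdia6 and Manf), beside 10.7% of all genes, and 0 reached 1.5-fold (0.376%). With a further term for how many genes each library detected, 1 was lower (Manf; 25.1% of all genes) and 3 were higher (27.4%), with a median of 0.05. That number itself differs between the treatments of the lung, so the 2 cannot be told apart. The 6 lung markers also fell together, 6 of 6 at that adjusted p (Scgb1a1 by 1.01 and Sftpc by 0.79 on the log2 scale), with sums of 136152 to 264332 TPM in normoxia and 34681 to 205328 after IH, while plasma cell markers, a cell type rich in ER, had median sums of 583 and 534 TPM, with 4 of 7 lower. Their part in the result was not tested.

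In the liver, 4 of the 10 chaperones fell after IH (Calr, Hsp90b1, Pdia4 and Pdia6), where 13.3% of the 11334 genes tested were lower, and all 4 had a lower mean TPM at 8 of 8 times. Only Calr also passed 1.5-fold, beside 2.55% of all genes, and without the library that stood apart 0 did. Calr ranged from 298 to 500 TPM in normoxia (median 428) and from 72.9 to 527 after IH (median 266), a log2 change of -0.60 ± 0.11 (adjusted p = 1.06e-04, limma). Hspa5 and Hyou1 changed by -0.44 ± 0.21 and -0.43 ± 0.21 and did not pass. The other 4 genes had log2 changes between -0.05 (Creld2) and 0.16 (Manf), with intervals that reach -0.54 to 0.45 for Creld2 and -0.24 to 0.56 for Manf.

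The 3 replicates of the liver after IH differed in level throughout the day. Replicate 3 had the highest Hspa5, Hsp90b1 and Calr of the 3 libraries at 8 of 8 times. Hspa5 ran from 115 to 180 TPM over the 8 times in replicate 1, from 70.2 to 470 in replicate 2 and from 299 to 1017 in replicate 3. Creld2 did not divide in this way, with medians of 28.0, 26.6 and 38.9 TPM in replicates 1, 2 and 3. Within replicate number 3 alone, 0 of the 10 genes were lower (median log2 change 0.27), while within numbers 1 and 2 alone 6 and 5 were lower, and without replicate 1 or without replicate 2 the count over the liver was 0. The summed liver markers moved with the replicates: their medians after IH were 33690, 36553 and 58350 TPM in replicates 1, 2 and 3, beside 52098, 55490 and 57818 in normoxia. Kidney markers, near 0 in most normoxic liver libraries, had medians of 90.7, 86.0 and 70.6 TPM after IH and lay between 0.762 and 113 in replicate 3 of normoxia, beside at most 7.69 in replicates 1 and 2. The part of these in the result was not tested.

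In the heart the chaperones rose. Of the 10, 7 were higher after IH (Hspa5, Hsp90b1, Hyou1, Dnajb9, Pdia4, Pdia6 and Calr), where 28.0% of the 12779 genes tested were higher, and 0 reached 1.5-fold (1.1% of all genes). Hspa5 ranged from 74.1 to 222 TPM in normoxia (median 118) and from 90.5 to 335 after IH (median 186), and it was higher after IH at 8 of 8 times. Its log2 change was 0.57 ± 0.11 (adjusted p = 2.36e-05, limma). Hyou1 stood at 8.38 ± 3.19 TPM in normoxia and 12.9 ± 4.53 after IH, a change of 0.49 ± 0.10, and Pdia4 at 12.5 ± 4.54 and 18.7 ± 5.27, a change of 0.47 ± 0.08. Creld2 (0.22 ± 0.10), Sdf2l1 (0.16 ± 0.13) and Manf (0.10 ± 0.11) did not pass. In TPM as deposited 8 genes were higher, beside 37.5% of all genes, of which 3 by 1.5-fold (2.55%). With genes detected per library as a further term 0 were (0.884%), and the 10 estimates ran from 0.01 (Dnajb9) to 0.23 (Pdia4). That number differs between the treatments of the heart too. Heart markers summed to 17200 ± 3544 and 17775 ± 3012 TPM in normoxia and after IH.

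**Figure D2:**
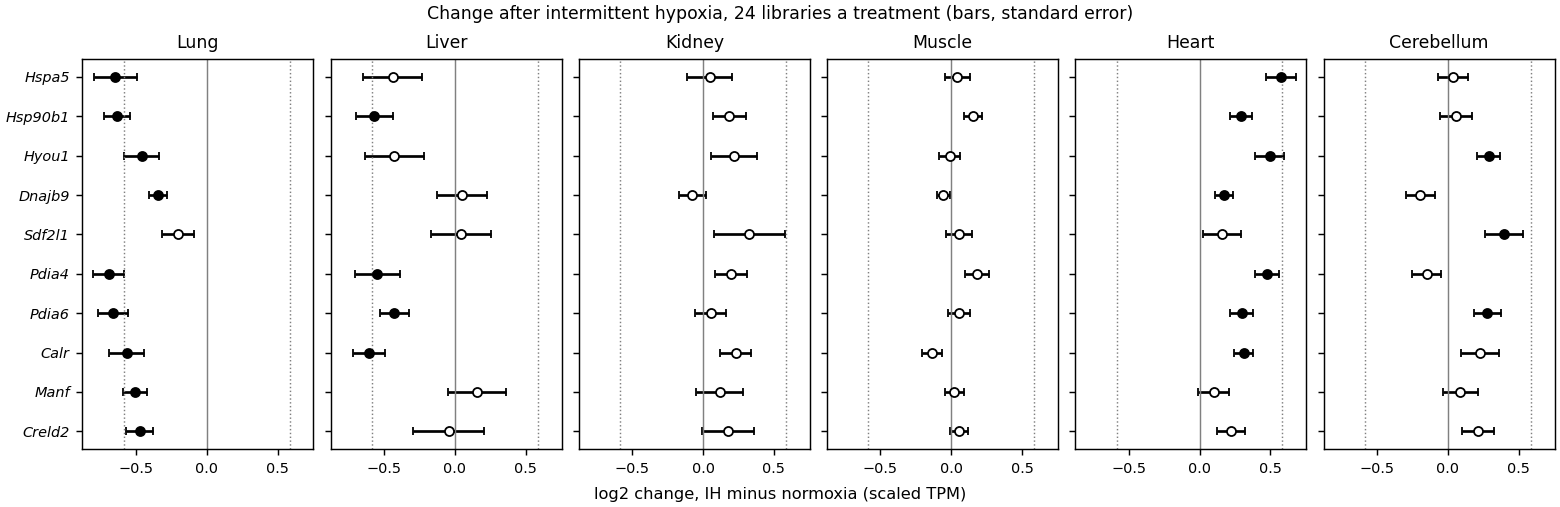
The log2 change of each gene, IH minus normoxia, with its standard error in the 6 tissues (24 libraries a treatment). Filled points passed an adjusted p of 0.05, and dotted lines mark 1.5-fold. Filled points lie left of 0 in the lung and the liver and right of 0 in the heart and the cerebellum.

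In the cerebellum 3 genes were higher, Hyou1 (0.29 ± 0.08), Sdf2l1 (0.40 ± 0.13) and Pdia6 (0.28 ± 0.10), where 9.76% of the genes tested were higher. Sdf2l1 had a mean of 26.9 TPM in normoxia and 36.6 ± 13.0 after IH and was higher at 8 of 8 times (adjusted p = 0.0359, limma). Without the library that stood apart, Creld2 passed as well, for 4 genes in all, while in TPM as deposited (4.14% of genes higher) and without replicates 1 or 2 the count was 0. In the kidney (8.25% of genes higher, 11.5% lower) and in the muscle (5.48% and 4.89%) no gene passed. The kidney change with the lowest p, that of Calr, was 0.23 ± 0.11 with an interval from 0.02 to 0.44 before adjustment, and the muscle intervals were narrow, as for Hspa5, from -0.13 to 0.22. A rise of 1.5-fold lies outside all 10 muscle intervals.

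**Figure D3:**
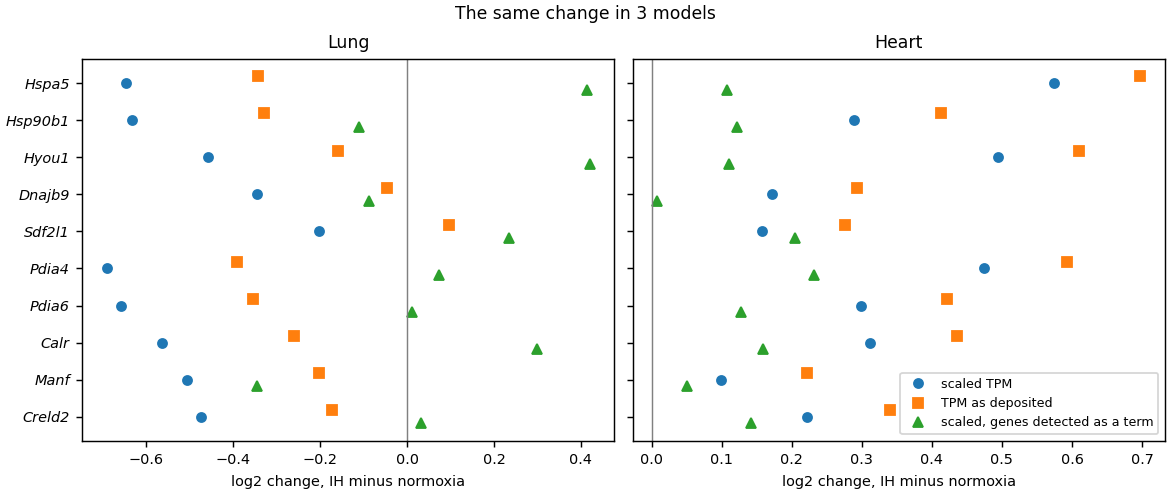
The log2 change, IH minus normoxia, of each gene in the lung and the heart in 3 models: scaled TPM (circles), TPM as deposited (squares) and scaled TPM with a term for genes detected per library (triangles). In the lung 7 of the 10 triangles lie right of 0, while 10 of 10 circles lie left of it, and in the heart all points lie right of 0.

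Whether the change differed between tissues was tested directly, as the interaction of treatment with tissue over the libraries of all tissues. The F test passed for 9 of the 10 genes, with Sdf2l1 the exception (adjusted p = 0.115, limma), beside 82.3% of the 15551 genes tested. Passing this F test is thus no property of the chaperones. The change of the lung was lower than that of the heart for 9 genes (39.6% of all genes), than that of kidney for 9 (31.8%), the muscle for 8 (26.5%), the cerebellum for 9 (33.4%) and the liver for 3 (37.1%). The difference between lung and heart was -1.30 ± 0.21 for Hspa5 and -1.24 ± 0.16 for Pdia4 on the log2 scale. Against the liver, the 3 genes that differed were Manf (-0.74 ± 0.19), Creld2 (-0.50 ± 0.22) and Dnajb9 (-0.47 ± 0.15), which were lower after IH in the lung and not in the liver. For Calr the difference between lung and liver was -0.04 ± 0.15. These counts fell in other models: in TPM as deposited to 0 for liver, 2 for cerebellum, 3 for muscle and 4 for kidney, and with genes detected as a further term to 1 against the liver, 4 against the muscle and 2 against the heart. Without replicate 3 the count against the liver was 1, and without replicates 1 and 2 that against the muscle was 4 and 3. All libraries were taken as independent here, although organs of 1 mouse are among them.

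Other genes of ER protein handling were counted from 4 lists. In the lung, 19 of 24 other folding enzymes and cofactors were lower and 1 higher, with a median log2 change of -0.40, as were 17 of 17 genes of the translocon and signal peptide processing (median -0.41), 15 of 19 of ER-associated degradation (3 higher, median -0.27) and 5 of 10 sensors and regulators of the unfolded protein response (2 higher, median -0.13). These stand beside the 41.5% of all genes that were lower. The largest changes past 1.5-fold were those of Pdia3 (-0.74 ± 0.11), P4hb (-0.72 ± 0.10) and Pdia5 (-0.72 ± 0.08), which are disulfide isomerases, Tmbim6 (-0.67 ± 0.11), Os9 (-0.65 ± 0.11), a lectin of ER-associated degradation, and Ssr2, Spcs1 and Sec62 (-0.65 to -0.59), which serve protein entry into the ER. In TPM as deposited all 8 were under 1.5-fold (Pdia3 -0.43), and with genes detected per library as a further term Pdia3 (0.01), Tmbim6 (0.15) and Os9 (0.19) turned sign and P4hb stood at -0.05.

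In the heart, 15 of 24 folding enzymes, 9 of 17 translocon genes (3 lower), 13 of 18 genes of degradation and 8 of 10 sensors and regulators were higher, beside 28.0% of all genes, with medians of 0.12 to 0.24. None reached 1.5-fold. In the liver, beside 13.3% of all genes, 10 of 23 folding enzymes were lower and 1 higher (median -0.24), 4 of 17 translocon genes lower (median 0.07), 3 of 19 of degradation lower and 1 higher (median -0.11) and 1 of 11 sensors lower (median -0.15). The genes past 1.5-fold were Os9 (-0.75 ± 0.14), Syvn1 (-0.64 ± 0.19), the ubiquitin ligase of ER-associated degradation, Sec63 (-0.67 ± 0.10), a J-domain partner of HSPA5 at the translocon, and Sec61a1 (-0.60 ± 0.11), its channel. In kidney, muscle and cerebellum at most 3 genes of any list were higher and at most 3 lower.

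The study's next question was whether genes cycled over 24 hours and whether IH changed that. A rank test (JTK) and the Lomb-Scargle periodogram at 24 hours were applied to every tissue and treatment, 24 libraries at a time, and their p-values combined. Since both read the same values, the combined p is too small, and counts from the rank test alone stand beside it. Most chaperones were rhythmic in kidney under both treatments, in heart after IH and in liver in normoxia, and 0 were in the muscle (background 2.69% in normoxia and 6.35% after IH).

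In the kidney, 7 of 10 genes were rhythmic in normoxia (all but Hyou1, Pdia4 and Calr; 14.3% of all genes) and the same 7 after IH (3.05%). The rank test alone called 4 in normoxia (Dnajb9, Sdf2l1, Manf and Creld2; 4.69% of all genes) and 3 after IH (Hsp90b1, Sdf2l1 and Creld2; 0.816%). Sdf2l1 had the widest swing: in normoxia its mean was 14.7 TPM at 1:30, 13.8 at 4:30, 9.91 at 7:30, 11.3 at 10:30, 27.3 at 13:30, 54.2 at 16:30, 36.9 at 19:30 and 27.2 at 22:30. After IH it ran from 10.9 TPM at 10:30 to a peak of 57.01 at 16:30 and stayed at 54.7 at 19:30. Both profiles had their trough at 7:30 or 10:30 and peaked at 16:30. The fitted acrophase was 17.9 hours in normoxia and 19.3 after IH, with amplitudes of 75.0% and 71.1% of the mean level.

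Kidney acrophases of the 7 rhythmic genes ran from 13.8 hours (Dnajb9) to 19.2 (Pdia6) in normoxia and from 12.9 (Dnajb9) to 21.0 (Pdia6) after IH. Among the 7 rhythmic genes Dnajb9 came first and Pdia6 last under both treatments. Creld2 peaked at 87.0 TPM in normoxia and 89.9 after IH, both at 16:30. At 1:30 the 3 normoxic libraries held 32.9, 27.2 and 24.9 TPM of Creld2 and the IH libraries 24.0, 84.7 and 77.4, so that 2 of 3 IH libraries were high and 1 was not.

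In the heart, 0 of 10 genes were rhythmic in normoxia (0.723% of all genes; 3 at an unadjusted p of 0.05) and 9 of 10, all but Dnajb9, after IH (3.44%). The rank test alone called 6 of 10 after IH (Hspa5, Hsp90b1, Sdf2l1, Pdia6, Manf and Creld2; 0.862%) and the limma cosine fit 9 (4.17%). Sdf2l1 after IH held 18.2, 25.2 and 22.47 TPM at 1:30, 7.28, 6.12 and 9.46 at 7:30 and 24.2, 16.3 and 24.6 at 19:30. In normoxia it held 16.7, 10.0 and 16.6 TPM at 1:30, 7.36, 7.73 and 28.9 at 7:30 and 9.94, 16.3 and 22.9 at 19:30. After IH the libraries of 7:30 all lay below those of 1:30 and 19:30, while in normoxia the highest of these 9 values came at 7:30. That value (28.9 TPM) is from replicate 3 of 7:30, the heart library with the lowest mean correlation to its group (0.826) and the lowest sum of heart markers in normoxia (9529 TPM). Without it 1 gene was rhythmic in normoxia and 9 after IH. The 9 rhythmic genes had acrophases within 21.0 to 22.0 hours and amplitudes of 23.5% (Calr) to 45.3% (Sdf2l1) of the mean. Hspa5 means after IH were 240, 171, 140, 137, 187, 189, 248 and 291 TPM from 1:30 to 22:30, and in normoxia 166, 134, 116, 97.3, 88.4, 123, 124 and 133.

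The difference itself was weaker than these counts. In the CircaCompare-type fit the heart amplitude of Hspa5 was 28.2 TPM in normoxia and 68.4 after IH (difference 40.2 ± 17.1), and 4 genes (Hsp90b1, Dnajb9, Sdf2l1 and Creld2) had a cosine p of 0.05 or less only after IH, of which all but Dnajb9 were also rhythmic by the combined test and count as gained. Without the library of 7:30 that had the lowest correlation, 1 gene counted as gained. Differences in amplitude and acrophase were adjusted only over genes with a cosine p of 0.05 or less under both treatments, which were 6 chaperones in the heart, 7 in kidney, 5 in lung, 2 in cerebellum, 1 in liver and 0 in muscle, and 0 of these passed (lowest adjusted p 0.331, for amplitude in the heart). The fitted mean level (MESOR), adjusted over the same genes, did differ for 6 of the 6 chaperones in the heart (171 of 282 genes). It differed for 2 of 5 in lung (987 of 1610 genes), 1 of 2 in cerebellum (7 of 110) and 0 in kidney and liver. The 3 gained genes had unadjusted p-values of 0.0202 (Hsp90b1), 0.0318 (Sdf2l1) and 0.0379 (Creld2) for amplitude in this fit over the 48 libraries. With the 2 treatments in 1 limma model over all genes, the 24-hour cosine differed for 0 genes of 12779 in the heart (0.0%), and 4 chaperones (Hsp90b1, Sdf2l1, Manf and Creld2) had an unadjusted p of 0.05 or less, where 0.563% of all genes did. A gain of rhythm in the heart was not shown by a test of the difference.

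**Figure D4:**
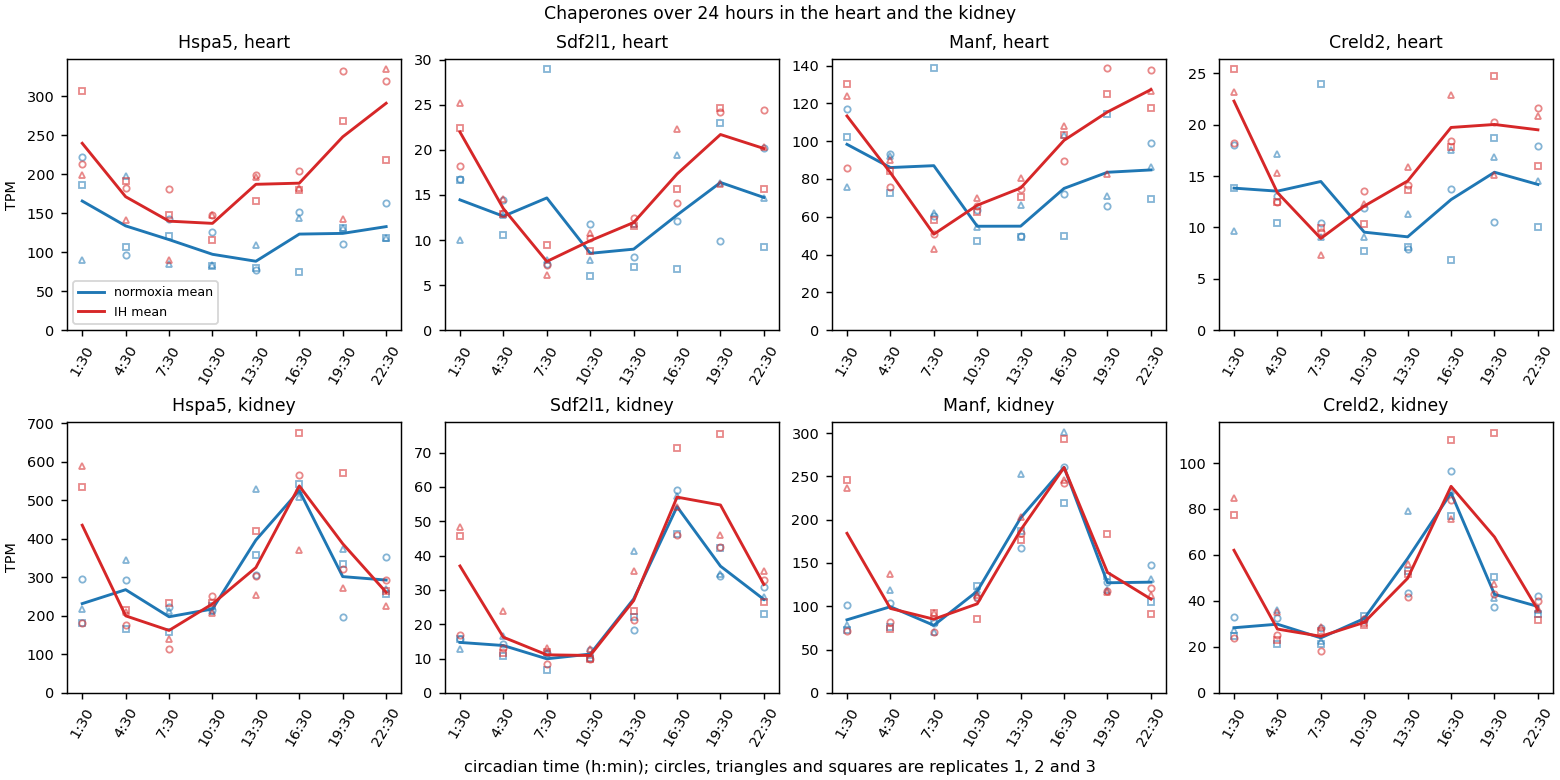
TPM of Hspa5, Sdf2l1, Manf and Creld2 over 8 circadian times in the heart (top) and the kidney (bottom), normoxia in blue and IH in red, with lines through the means of 3 libraries and symbols for single libraries. In the kidney both lines peak at 16:30 for Sdf2l1 and Creld2, and in the heart the red lines have their trough at 7:30 or 10:30 and lie highest between 19:30 and 1:30.

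Lung chaperones were rhythmic in 2 cases in normoxia (Dnajb9 and Creld2; 7.92% of all genes) and 4 after IH (Hsp90b1, Sdf2l1, Pdia6 and Creld2; 9.98%), with acrophases of 20.1 to 21.3 hours after IH. The rank test alone called Sdf2l1 after IH (3.53%) and 0 in normoxia (1.88%), although 6 of 10 passed the combined test before adjustment under each treatment. Sdf2l1 in the lung after IH ran from a mean of 18.4 TPM at 10:30 to 38.4 at 1:30. In the cerebellum, Sdf2l1 and Manf were rhythmic in normoxia (3.17%) and Sdf2l1 after IH (0.0468%, 10 genes of 21372), but the rank test alone called 0 chaperones under either treatment (0.00468% and 0.0% of all genes), while 5 of 10 passed the combined test before adjustment under each.

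In the normoxic liver, Hspa5 means were 350, 295, 258, 309, 652, 598, 266 and 301 TPM from 1:30 to 22:30, with single libraries of 530, 616 and 809 TPM at 13:30 and of 222, 251 and 325 at 19:30. The 3 libraries at 13:30 thus lay above all normoxic libraries of the 6 times outside 13:30 and 16:30. Creld2 rose from 22.7 TPM at 7:30 to 94.9 at 13:30 and was back at 35.0 at 19:30. Dnajb9 peaked at 13:30 alone, at 62.7 TPM beside 30.2 at 16:30, while Hyou1 was high at both, at 68.0 and 73.5.

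The combined test called 7 of 10 genes in the normoxic liver (all but Hspa5, Hyou1 and Manf; 14.0% of all genes) and the rank test alone 0, while 1079 genes (7.45%) passed it. After IH, 0 of 10 were called (7.06%), and 0 passed before adjustment or by the rank test or limma cosine. Of the 7, 6 had a cosine p of 0.05 or less in normoxia only by the CircaCompare-type fit (Hsp90b1, Dnajb9, Pdia4, Pdia6, Calr and Creld2), but their amplitudes did not all fall: that of Dnajb9 was 12.2 TPM in normoxia and 4.09 after IH, of Creld2 27.6 and 18.9, of Hsp90b1 36.8 and 28.3, of Pdia4 17.7 and 19.2, of Calr 42.7 and 43.6 and of Pdia6 15.1 and 15.2. The 24-hour cosine differed between treatments for 0 genes in the liver by limma (86, or 0.759%, at an unadjusted p of 0.05, 0 of them chaperones), so that a loss of rhythm was not shown by a test of the difference, and the IH libraries carry the gap between replicates described above.

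A 12-hour cosine was tested in a model that also held the 24-hour one. In the normoxic liver it passed for 4 chaperones, Hspa5, Hyou1 (adjusted p = 0.00304 each, limma), Dnajb9 and Creld2 (adjusted p = 0.0249 each, limma), among 28 of 11334 genes, or 0.247%. The count was 2 in TPM as deposited, and 1, 0 and 5 without replicates 1, 2 and 3. Their 12-hour amplitudes were 0.51, 0.55, 0.48 and 0.61 on the log2 scale, beside 24-hour amplitudes of 0.43, 0.45, 0.45 and 0.74, with 12-hour peaks at 2.41, 2.59, 0.86 and 2.61 hours and again 12 hours later. The component does not mean 2 equal peaks: each of these genes had 1 tall peak at 13:30 or 16:30 and at most a low shoulder at 1:30 (for Hyou1 40.8 TPM, beside 73.5 at 16:30). With 8 times over 1 day, a narrow single peak and a 12-hour rhythm cannot be told apart by this fit. Pdia4 had an adjusted p of 0.0942 and Manf of 0.222.

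In the liver after IH the 12-hour component passed for 0 of 11334 genes (214, or 1.89%, at an unadjusted p of 0.05, among them Creld2). In the other 5 tissues it passed for 0 genes (0.0%) under either treatment by limma. Creld2 in the normoxic kidney had an unadjusted p of 5.05e-05 (adjusted p = 0.301, limma), with a 12-hour amplitude of 0.38 and a peak at 3.05 hours. Hspa5, Hyou1 and Manf had unadjusted p-values of 1.91e-04, 4.06e-04 and 1.67e-04 there (limma). The counts alone thus do not show that the component is confined to the liver. Between treatments the 12-hour term did not differ for any gene of the liver at an adjusted p of 0.05 (194, or 1.71%, at an unadjusted p of 0.05, 0 of them chaperones).

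**Figure D5:**
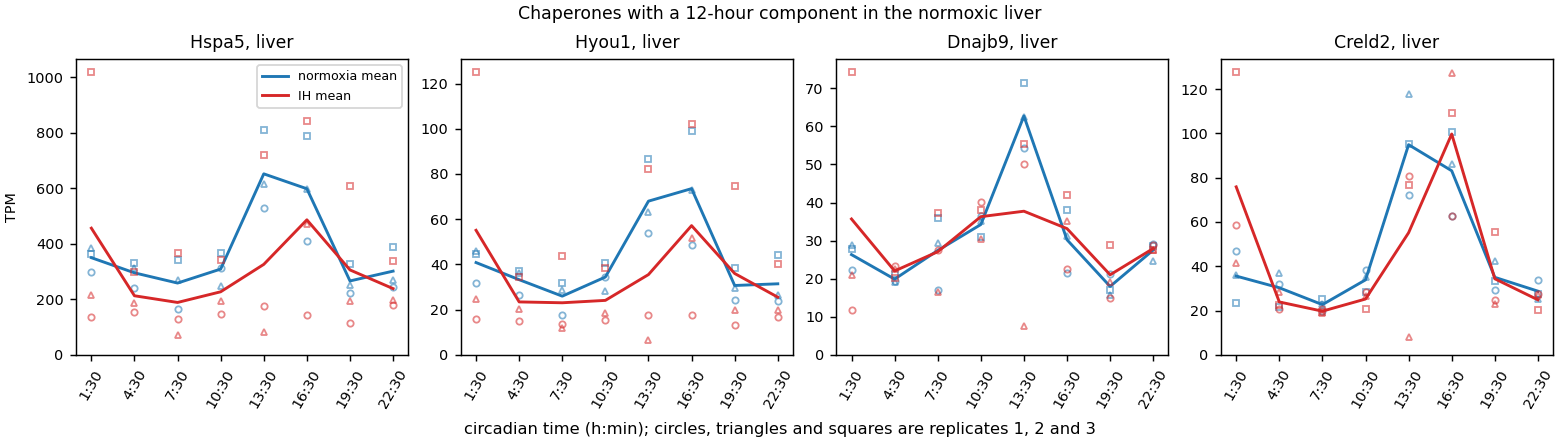
TPM of Hspa5, Hyou1, Dnajb9 and Creld2 over 8 circadian times in the liver, normoxia in blue and IH in red, with lines through the means of 3 libraries and circles, triangles and squares for replicates 1, 2 and 3. The blue lines peak at 13:30 or 16:30, and the red squares (replicate 3) of Hspa5 and Hyou1 lie above the red circles and triangles at every time.

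The 10 genes varied together from library to library. With each gene centred on its mean in its tissue and treatment, the correlation between pairs of chaperones over the libraries of all tissues had a median r of 0.65, from 0.24 (Dnajb9 with Pdia6) to 0.91 (Hspa5 with Hyou1). Dnajb9 was the least like the rest, with a median r of 0.35, where the other 9 had medians of 0.55 (Manf) to 0.75 (Hspa5). The median over pairs was 0.53 in the cerebellum and 0.61 in the liver, and 0.74 to 0.78 in the other tissues. These points share circadian time, library composition and, for some, animals, and are given as a description.

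The genes outside the 10 whose values were most like the mean of the chaperones, among 15551 genes, were Dnajb11 (r = 0.91), a J-domain partner of HSPA5, Pdia3 (0.84), the disulfide isomerase that works with calreticulin, and Dnajc3 (0.78), an ER J-domain protein. They were followed by Stip1 (0.76), Ahsa1 (0.73), Hsph1 (0.70), Hsp90ab1 (0.70) and Fkbp4 (0.68), which are cytosolic chaperones or cochaperones, P4ha1 (0.70), a collagen prolyl hydroxylase of the ER, and the histone gene H3c15 (0.68). The cytosolic genes were less alike in the heart than in the lung, by unequal amounts. In heart and lung r was 0.35 and 0.94 for Stip1, 0.32 and 0.77 for Hsph1, and 0.71 and 0.94 for Hsp90ab1. The ER genes Dnajc3 (0.65 and 0.94) and P4ha1 (0.65 and 0.93) were lower in the heart too, while Pdia3 stood at 0.92 in both.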

How the data were processed

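The data are RNA-seq of 6 mouse tissues in normoxia or after IH. The authors quantified paired-end, strand-specific reads with Kallisto against Ensembl mouse release 102 (mm10 per the labels) and deposited TPM per gene; their own tests were a count model, MetaCycle and CircaCompare. Groups, times and replicate numbers come from the sample titles. With no counts, precision per value is unknown.

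Here, limma 3.58.1 in R 4.3.3 took the place of the count model: each library was divided by its median ratio to the gene means, a pseudocount of 0.5 was added and log2 taken. Genes averaging 1 TPM or more were fitted with treatment alone and a prior trend. Changed means a Benjamini-Hochberg adjusted p of 0.05 or less over all genes of the tissue, with and without 1.5-fold. Fold changes are on the log2(TPM + 0.5) scale, and tests are 2-sided. JTK, Lomb-Scargle (combined by Fisher's method) and CircaCompare were re-implemented on TPM (maximum at least 1) in Python 3.11.15 with scipy 1.17.1, since MetaCycle was not at hand. JTK, Lomb-Scargle and their combination were tested on simulated data. No such test is reported here for the CircaCompare-type fit.

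The members and gene lists were chosen with earlier results of these data known. Named are the members; up to 4 genes per list and tissue with the largest changes past both thresholds; the 10 genes most like the members' mean; and markers where their sums differ between treatments. Erythroid markers fell in the lung (6 of 6) and rose in the liver (4 of 5, 1 lower) and kidney (5 of 6); 0 passed elsewhere. Pancreatic acinar markers passed in 1 case (liver, 1 of 2 higher). Plasma cell markers passed in the lung (Igha, Igkc and Ighm past 1.5-fold) and kidney (Igha), all lower. Of the liver markers 2 of 6 were lower in the liver, of the kidney markers 3 of 3 higher in the liver and 1 of 6 lower in the kidney, and of the cerebellum markers 0 passed in any tissue. Of the muscle markers 2 of 6 were lower in the muscle, and of the heart markers 5 of 5 were higher in the liver and 4 of 6 in the lung. Whether replicate numbers pair libraries was checked by the correlation of deviations at the same time and number: the median r ran from -0.14 (lung) to 0.22 (liver), and in no tissue was every pair over 0.1 (16 of 24 pairs were in the liver), so the numbers were not treated as pairs. Asking this of every pair is strict, so the check does not show that same-numbered libraries share nothing. Counts from fits with replicate blocks are given below. Protein sequences were not used here. The limma tests of a differing 24- or 12-hour cosine, and rhythm tests run after dropping the 1 library least like its group, were chosen after seeing the data. The p-values measure the spread between libraries. Alternatives were other scaling, pseudocounts, filters, terms and tests, and leaving out libraries or replicate numbers.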

Additional observations from a re-analysis of the deposited data

Results flagged for a closer look

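The change of a chaperone after IH differed between the 6 tissues for 9 of the 10 genes by the F test of the interaction (limma). The adjusted p was 9.88e-14 for Pdia4, 1.54e-13 for Pdia6, 2.63e-13 for Hsp90b1, 1.79e-12 for Calr, 9.86e-08 for Hspa5, 3.42e-07 for Hyou1, 0.00234 for Manf, 0.00258 for Dnajb9 and 0.00636 for Creld2. The change of the lung was lower than that of the liver for 3 genes (37.1% of all genes) and of the kidney for 9 (31.8%). It was lower than that of the muscle for 8 (26.5%), of the heart for 9 (39.6%) and of the cerebellum for 9 (33.4%). In TPM as deposited these counts were 0 for liver, 2 for cerebellum, 3 for muscle and 4 for kidney, and with genes detected as a term the count against the heart was 2. Over all genes 82.3% passed the F test, so that passing it is no property of the chaperones. The count against the liver is not above its share of all genes either. The treatments of the lung and the heart also differ in opposite directions in the number of genes detected. The part of that number in the result was not tested beyond the fits with it as a term.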

How the results depend on the processing

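The counts below are of the 10 chaperones. Of the values of single genes that passed in their tissue, 289 stayed on the same side of the threshold, 67 lost it and 12 changed sign. The counts changed as follows.

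In the lung 9 were lower. TPM as deposited left 5, genes detected as a term 1 lower and 3 higher (0 higher otherwise), and replicate number 3 alone 4. With 1.5-fold as well, 4 were lower, and TPM as deposited, genes detected as a term and replicate number 3 alone left 0, replicate number 2 alone gave 8, and leaving out a replicate number gave 0 (replicate 1) to 7 (replicate 3). With genes detected as a term the sign turned for Hspa5 (0.41), Hyou1 (0.42), Pdia4 (0.073), Pdia6 (0.011), Calr (0.30) and Creld2 (0.032), and in replicate number 3 alone for Hspa5 (0.062) and Hyou1 (0.19). Sdf2l1, which did not pass, went from -0.20 to 0.23 and 0.05 in these 2 fits. In the liver 4 were lower; replicate number 3 alone gave 0, with signs turned for Hsp90b1 (0.25), Pdia4 (0.15), Pdia6 (0.029) and Calr (0.067), and leaving out a number gave 0 (replicate 1 or 2) to 6 (replicate 3). With 1.5-fold 1 was, and TPM as deposited and genes detected as a term gave 3 each, replicate numbers 1, 2 and 3 alone 6, 5 and 0, leaving out a number 0 to 6, and leaving out the library that stood apart 0. In the heart 7 were higher; genes detected as a term gave 0 and replicate numbers 1, 2 and 3 alone 3, 3 and 0. With 1.5-fold 0 were, and TPM as deposited gave 3, replicate number 1 alone 2 and leaving out a number 0 to 1. In the cerebellum 3 were higher; TPM as deposited and genes detected as a term gave 0, no filter 1, replicate numbers alone 0, 1 and 0, and leaving out a number 0 to 1 (also 0 to 1 lower, where 0 were). In the kidney 0 were higher; genes detected as a term, a time term and replicate number 3 alone gave 2 each (1 with 1.5-fold in the latter), and leaving out a number 0 to 2. In the muscle 0 were higher, and TPM as deposited and genes detected as a term gave 1 each.

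Rhythmic genes changed more. Lung, normoxia, 2: scaled TPM 5, limma cosine 4, rank test 0, without a number 0 to 0. Lung, IH, 4: 1, 1 and 1, and 0 to 2. Liver, normoxia, 7: scaled 4, rank test 0, and 0 to 3. Kidney, normoxia, 7: rank test 4, and 3 to 9. Kidney, IH, 7: rank test 3, and 2 to 5. Muscle, normoxia, 0: scaled 2 and limma cosine 2. Muscle, IH, 0: 3 and 2. Heart, normoxia, 0: scaled 2, and 1 without the library of lowest correlation. Heart, IH, 9: 3 to 7 without a number. Cerebellum, normoxia, 2: limma cosine 0, rank test 0, and 0 to 0. Cerebellum, IH, 1: scaled 2, limma cosine 0, rank test 0, and 0 to 0. The 12-hour component of the normoxic liver, 4 genes: TPM as deposited 2, and 0 to 5. Lost rhythm was called for 6 in the liver (scaled 3, log2 1, 0 to 3), 0 in the kidney (0 to 4) and 0 in the cerebellum (scaled 1, log2 1). Gained rhythm was called for 3 in the heart (log2 1, 1 without the library of lowest correlation), 0 in the muscle (scaled 1, log2 1) and 0 in the lung (0 to 1). Lower in the lung than in the liver were 3 (TPM as deposited 0, genes detected as a term 1, 1 to 2), the kidney 9 (deposited 4), the muscle 8 (3 and 4, and 3 to 8), the heart 9 (genes detected 2) and the cerebellum 9 (deposited 2). The cause of these differences was not tested.

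With a replicate block of number alone, 1 gene was higher in the muscle and 6 had a 12-hour component in the normoxic liver. With a block of time point and number 2 were higher in the muscle, 2 in the kidney and 8 in the heart, with 10 lower in the lung and 6 in the liver. Libraries of 1 number share no known animal or day. Deviations of same-numbered liver libraries had a median r of 0.22, and replicate 3 of the muscle was most often the lowest under both treatments. Whether a number marks a shared batch was not tested.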

Other observations

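The replicate number went with the level of the chaperones in the muscle and the lung as well. Over 80 combinations of gene and time, replicate 3 of the muscle held the lowest of the 3 libraries in 67 cases in normoxia and 63 after IH, while the highest was replicate 1 in 54 cases in normoxia and replicate 2 in 67 after IH. In the lung, replicate 1 was the highest in 54 cases in normoxia and replicate 3 in 48 after IH. Mean levels in the muscle peaked at 22:30 for 9 of the 10 genes in normoxia and at 1:30 for all 10 after IH, although 0 of them were called rhythmic by the combined test. Each of these means rests on 3 libraries, and the genes vary together in the muscle (median r of 0.78 between pairs). The share of all muscle genes with these peak times is not given here, so no shift after IH is read from the counts.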
